A study of Homo sapiens with 10 samples.

Results

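The comparison examined here asked which transcripts differ after 72 h of DOT1L inhibition in HCT116 cells, a line long established from a human colorectal carcinoma. It rests on 4 of the 10 libraries of the series, chosen by their treatment label. The DMSO group (2 libraries) received the solvent, and the EPZ group (2 libraries) received the inhibitor EPZ-5676 at 10 µM for 72 h. Both groups carry the genotype label Control and no transgene is named for them. The other 6 libraries are of HCT116 cells with a CDK9 knockdown, labelled EV, WT or K56A. Of these, the WT libraries (wild-type CDK9 put back, n = 2) and the K56A libraries (the same with alanine at lysine 56 of CDK9, n = 2) are used for a single comparison at the end. The labels do not say whether replicates were separate cultures, whether a line is a clone, or how the DMSO dose was matched. All p-values therefore measure the spread between these libraries, which may be technical.

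DOT1L is the enzyme that adds methyl groups to lysine 79 of histone H3, a mark found over the bodies of transcribed genes. It works with partners of the AF9 and AF10 families and is best known from leukaemias with rearranged KMT2A, where its inhibition lowers HOX and MEIS genes. EPZ-5676 (pinometostat) occupies the site of the methyl donor S-adenosylmethionine in DOT1L. The mark turns over slowly, so such inhibitors are usually applied for days. The title of the series links DOT1L to methylation of CDK9, which phosphorylates RNA polymerase II as part of P-TEFb, and to repair of DNA double-strand breaks. The histone mark itself was not measured in these libraries.

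Few genes separated the groups clearly. Fold changes are differences of log2(FPKM + 0.5), a scale that understates the change of low genes. SPP1 (osteopontin, a secreted matrix protein), SELENOP (a secreted selenium carrier), TMSB4X (an actin-binding peptide) and histone genes such as H2AC6 stood higher in both EPZ libraries. Their log2 fold changes were 1.13 ± 0.17, 0.88 ± 0.18, 0.44 ± 0.09 and 1.20 ± 0.21 (SE, n = 2 libraries a group). The decoy receptor gene TNFRSF6B, the AP-1 subunit gene FOSL1, the transcription factor KLF2, the hyaluronan synthase HAS3 and the tumour suppressor locus CDKN2A stood lower (-1.20 ± 0.19, -0.67 ± 0.13, -0.58 ± 0.11, -0.59 ± 0.11 and -0.65 ± 0.14). Of 50 genes of DNA replication 40 lay below 0 by small amounts, and of 39 interferon-stimulated genes 33 lay above 0. Among all genes tested 50.5% lay above 0. The median log2 fold change of the interferon-stimulated genes went from 0.20 to 0.10 without DMSO replicate 1. None of the genes named above or in these lists passed the test across all genes. SMIM11B did, and it shares its sequence with a copy that went the other way.

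RNA was measured as FPKM (fragments scaled to transcript length and library total), summed here over the transcripts of each gene. The tables hold no counts, so the absolute depth is unknown. The commonest ratios between transcript values put DMSO replicate 2 at 1.23 times, EPZ replicate 1 at 1.07 times and EPZ replicate 2 at 1.29 times the depth of DMSO replicate 1. DMSO replicate 1 also had the fewest transcripts above 0, 54216 against 59403 to 59913 in the other libraries. Epithelial markers were listed for 8 of 8 genes, with KRT8 at 1160.4 to 1308 FPKM and EPCAM at 139 to 184. Of 41 genes of colon and intestinal differentiation, 10 were listed, among them the intestinal transcription factor CDX2 at 6.15 to 8.50 FPKM. Few markers of other cell types were listed. Of the leukocyte markers 1 of 8 was listed (summed level 0.31 to 0.73 FPKM), of the endothelial markers 3 of 6 (0.16 to 0.38), of the fibroblast markers 2 of 8 (19.4 to 23.2, of which COL1A1 19.3 to 23.1) and of the erythroid markers 1 of 4 (1.34 to 3.66).

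DMSO replicate 1 stood apart from the other 3 libraries, and this bears on every value that follows. On the log2(FPKM + 0.5) scale it was the highest or lowest of the 4 in 9620 of 13130 genes. Its gap to the nearest library exceeded the whole range of the other 3 in 4211 genes (32.1%). The same was true of DMSO replicate 2 in 798 genes (6.08%), of EPZ replicate 1 in 831 (6.33%) and of EPZ replicate 2 in 1591 (12.1%). The deviations followed the base composition of the transcripts. Across 13040 genes with a known GC content, the deviation of DMSO replicate 1 had a Spearman rho of 0.602 with GC and that of EPZ replicate 2 had -0.652, against -0.267 for DMSO replicate 2 and 0.0573 for EPZ replicate 1. These are descriptions across genes, which are not independent. The difference between EPZ and DMSO carried the same trend. Its median ran from 0.15 in the group of genes lowest in GC (of 5 equal groups) to -0.14 in the highest. It ran from 0.03 to -0.04 when DMSO replicate 1 was left out, and from 0.07 to -0.06 without EPZ replicate 2. Without EPZ replicate 1 it ran from 0.23 to -0.23, and without DMSO replicate 2 from 0.26 to -0.25. Values without DMSO replicate 1, or with a smooth GC trend removed from every library, are therefore given beside many of the results. The part of base composition in any single gene's difference was not tested.

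**Figure D1:**
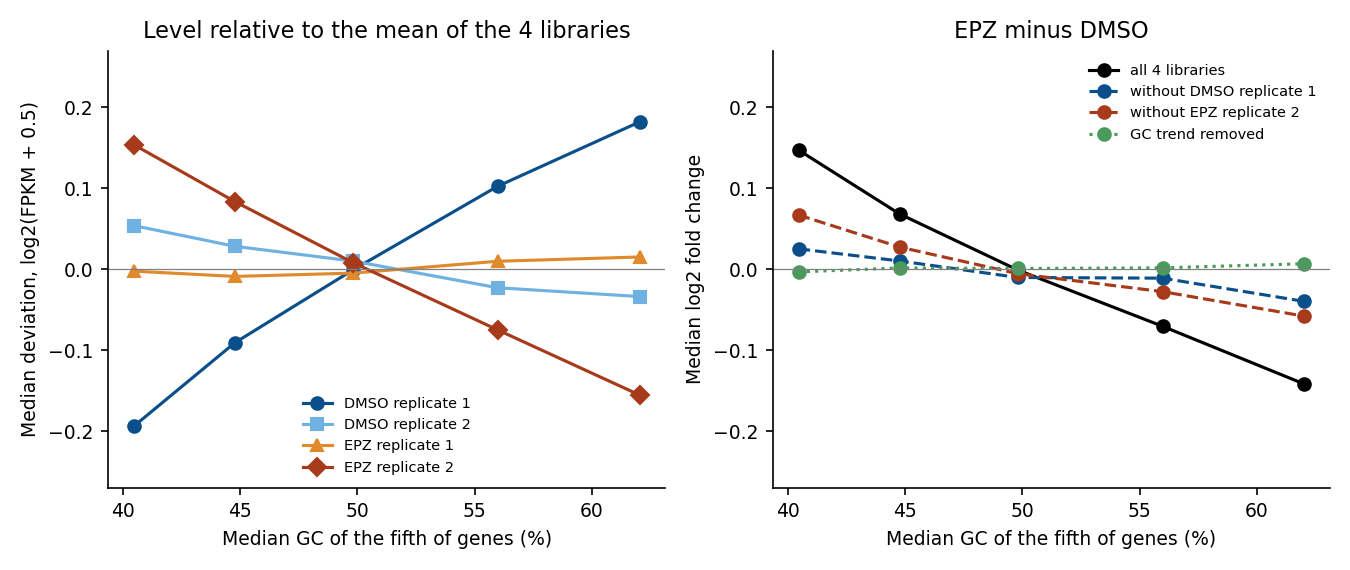
Genes were split into 5 equal groups by transcript GC content (x axis, median GC in %). The left panel plots the median deviation of each library from the mean of the 4 on the log2(FPKM + 0.5) scale, and the right panel the median log2 fold change of EPZ over DMSO with all libraries, without DMSO replicate 1, without EPZ replicate 2 and with the GC trend removed. DMSO replicate 1 climbs from -0.19 to 0.18 across the groups and EPZ replicate 2 descends from 0.15 to -0.16.

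Over all genes, the test found almost nothing. With limma at an adjusted p under 0.05, 0 of 13130 genes rose (0%) and 1 fell (0.00762%). Before adjustment, 765 genes had p under 0.05 (5.83%), of which 393 were higher (2.99%) and 372 lower (2.83%). In 4915 genes (37.4%) the 2 EPZ libraries lay entirely above or entirely below the 2 DMSO libraries, 2445 above (18.6%) and 2470 below (18.8%). With 2 libraries a side, an exact permutation test of a single gene cannot give a two-sided p below 0.333. Calls came mainly from leaving out a DMSO library. Without DMSO replicate 1, 40 genes rose and 36 fell, and without DMSO replicate 2, when DMSO replicate 1 alone stood for the control, 927 rose and 665 fell. Without an EPZ library the counts were 16 and 20 (replicate 1) or 14 and 19 (replicate 2). In each of these fits the lone library was assumed to vary like the other group. SMIM11B was listed at 0 in both EPZ libraries. Without a DMSO library its own spread was therefore that between 2 zeros, and passing there does not speak for stability. Only 31 genes passed both without DMSO replicate 1 and without DMSO replicate 2, and 7 passed in all 4 fits: IFI44, TNFRSF6B, SMIM11B, SMIM11A, NDUFC2-KCTD14, FABP5P7 and AC002996.1, which are named because of these values.

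DOT1L (ENSG00000104885, chromosome 19, 2163933 to 2232578, GRCh38) stood at 12.6 and 12.5 FPKM under DMSO and 10.7 and 10.4 FPKM under EPZ. Both EPZ libraries were below both DMSO libraries, and the DMSO libraries agreed closely. The log2 fold change was -0.25 ± 0.13 (SE, limma adjusted p = 0.756), -0.25 without DMSO replicate 1 and -0.10 with the GC trend removed. CDK9 (ENSG00000136807, chromosome 9, 127786034 to 127790792) stood at 43.9 and 37.6 FPKM under DMSO and 41.9 and 38.5 FPKM under EPZ, with overlapping groups. Its log2 fold change was -0.02 ± 0.13 (SE), and 0.10 without DMSO replicate 1.

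The partners of DOT1L lay close to their DMSO levels. The YEATS-domain readers MLLT3 (AF9) and MLLT1 (ENL), which recruit DOT1L to elongation complexes, are both in the list. MLLT3 stood at 14.4 and 13.999 FPKM under DMSO and 13.98 and 14.6 FPKM under EPZ. MLLT1 stood at 15.8 and 14.02 FPKM under DMSO and 16.2 and 15.3 FPKM under EPZ. Their log2 fold changes were 0.01 ± 0.13 and 0.08 ± 0.13 (SE). MLLT10 (AF10), needed for the higher methylation states of lysine 79, stood at 16.98 and 15.4 FPKM under DMSO and 15.5 and 16.4 FPKM under EPZ (-0.02 ± 0.13). Its relative MLLT6 (AF17) had a log2 fold change of -0.04 ± 0.14 and the H3 lysine 4 methyltransferase KMT2A one of 0.10 ± 0.13. The remaining 4 of the list were the nucleolar chaperone NPM1 (0.15 ± 0.13), the KMT2A cofactor MEN1 (-0.10 ± 0.12), the deacetylase SIRT1 (0.16 ± 0.16) and the acetyltransferase HAT1 (-0.04 ± 0.12). Of these 10 genes 0 passed, 5 lay above 0 and 5 below, and the median was 0.00, as for all genes tested (0.00). Most of these differences were smaller than the SE, and the signs of MLLT10, MLLT6 and NPM1 turned without DMSO replicate 1 (0.05, 0.11 and -0.04). After removal of the GC trend MLLT1 was at 0.24, HAT1 at -0.25 and the other 7 partners between -0.12 and 0.07.

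P-TEFb, which holds CDK9, releases paused RNA polymerase II, and the 7SK particle keeps P-TEFb inactive. In the list of P-TEFb, 7SK particle and super elongation complex, all 30 members were tested and 0 passed. The median was 0.02, and 0.03 without DMSO replicate 1. Groups did not overlap in 4 of the 30 members above and 4 below, against 18.6% and 18.8% of all genes tested. These counts are too small to be told apart from that background. The smallest p-value belonged to the elongation factor ELL2, at 9.51 and 10.1 FPKM under DMSO and 10.6 and 12.04 FPKM under EPZ (log2 fold change 0.20 ± 0.14, SE, and 0.06 with the GC trend removed). The next was CDC73, a subunit of the PAF1 complex, at 12.9 and 18.5 FPKM under DMSO and 18.7 and 18.1 FPKM under EPZ. Here DMSO replicate 1 alone was low, and the log2 fold change went from 0.25 to -0.01 without it.

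The gene that passed is 1 of a pair of copies, whose coding sequence is shown because both copies share it. SMIM11B (ENSG00000273590, chromosome 21, 7744975 to 7758627) encodes a small membrane protein, and its copy SMIM11A (ENSG00000205670) lies on the same chromosome at 34375480 to 34402777. The coding transcripts SMIM11A-201 (850 bases) and SMIM11B-202 (843 bases) of GENCODE release 29 align with 843 identical bases, 0 mismatches and 7 gap bases. Their coding sequences, each of 177 bases, do not differ (start and stop codon in capitals).
SMIM11A and SMIM11B: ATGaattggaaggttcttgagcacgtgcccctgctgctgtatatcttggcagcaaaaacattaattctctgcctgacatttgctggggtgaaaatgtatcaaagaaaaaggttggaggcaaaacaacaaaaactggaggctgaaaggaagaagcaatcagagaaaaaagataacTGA
SMIM11B stood at 4.52 and 7.69 FPKM under DMSO and 0 and 0 FPKM under EPZ, that is, it was listed at 0 in both EPZ libraries (limma adjusted p = 0.0307). It had passed the filter on low values through the DMSO libraries alone, so its direction was fixed by the filter. SMIM11A stood at 0 and 2.20 FPKM under DMSO and 7.06 and 8.51 FPKM under EPZ, the opposite pattern. The sum over both copies was 4.52 and 9.89 FPKM under DMSO and 7.06 and 8.51 FPKM under EPZ, with overlapping groups and a log2 fold change of 0.19. Reads of the shared sequence cannot be assigned to 1 copy, so the call for SMIM11B is uncertain. The same holds for SLX1B, a subunit of a nuclease that cuts branched DNA, and its copy SLX1A. Their transcripts SLX1A-202 and SLX1B-202 are identical over 762 bases and were given the same FPKM in every library. SLX1B stood at 7.23 and 6.16 FPKM under DMSO and 18.1 and 12.8 FPKM under EPZ. SLX1A stood at 48.98 and 40.1 FPKM under DMSO and 35.1 and 35.99 FPKM under EPZ. The sum over both was 56.2 and 46.2 FPKM under DMSO and 53.3 and 48.8 FPKM under EPZ, a log2 fold change of 0.00. Further copies among the named genes are FOXO3B, RGPD6 and FABP5P7. RGPD6 had lower values in EPZ (9.72 and 9.31 FPKM under DMSO and 4.93 and 6.14 FPKM under EPZ), its relative RGPD5 higher ones (7.09 and 11.7 FPKM under DMSO and 16.6 and 17.7 FPKM under EPZ). Summed over RGPD5, RGPD6 and RGPD8 the values were 23.03 and 27.1 FPKM under DMSO and 28.01 and 32.1 FPKM under EPZ. FOXO3B stood at 1.08 and 1.03 FPKM under DMSO and 4.19 and 2.41 FPKM under EPZ, while its parent gene FOXO3, a forkhead transcription factor, stood at 16.4 and 13.7 FPKM under DMSO and 15.03 and 14.4 FPKM under EPZ. The pseudogene FABP5P7 stood at 26.1 and 12.3 FPKM under DMSO and 8.27 and 5.90 FPKM under EPZ, and it overlaps STX3. Its parent FABP5, a fatty acid binding protein gene, stood at 123 and 156 FPKM under DMSO and 156 and 173 FPKM under EPZ. Without DMSO replicate 1 the log2 fold change of FABP5P7 went from -1.30 to -0.77 and that of SMIM11A from 2.83 to 1.61. The read-through NDUFC2-KCTD14 stood at 8.67 and 4.46 FPKM under DMSO and 0 and 1.79 FPKM under EPZ.

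The 12 genes with the smallest p-values for higher levels in EPZ (mean FPKM of at least 2, groups not overlapping) were SPP1, SLX1B, H2AC6, KRTAP2-3, H2AW, CFAP298-TCP10L, ANKRD37, SELENOP, TMSB4X, FOXO3B, S100A10 and BST2. None passed (limma adjusted p = 0.756 for each). These genes were picked for tight groups that do not overlap, so their stability when a library is left out is partly fixed by the choice. In none of the 12, nor of the 12 lower genes, did the log2 fold change move by over 1.5 times without DMSO replicate 1.

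SPP1 (ENSG00000118785, chromosome 4, 87975667 to 87983426), which encodes the secreted matrix protein osteopontin, stood at 2.43 and 2.68 FPKM under DMSO and 6.48 and 5.94 FPKM under EPZ. The groups were well apart, with a log2 fold change of 1.13 ± 0.17 (SE), and 1.08 without DMSO replicate 1. TMSB4X, which encodes the actin-sequestering peptide thymosin beta 4, and S100A10, the partner of annexin A2 at the plasma membrane, were the most abundant of the 12. TMSB4X stood at 309 and 323 FPKM under DMSO and 416 and 444 FPKM under EPZ. S100A10 stood at 299 and 321 FPKM under DMSO and 403 and 450.2 FPKM under EPZ. Their log2 fold changes were small but tight, 0.44 ± 0.09 and 0.46 ± 0.10 (SE), and 0.41 and 0.41 without DMSO replicate 1. SELENOP, a secreted selenium carrier, stood at 3.30 and 4.36 FPKM under DMSO and 7.90 and 6.94 FPKM under EPZ. ANKRD37, a hypoxia-inducible ankyrin-repeat gene, stood at 2.38 and 2.48 FPKM under DMSO and 4.58 and 5.09 FPKM under EPZ. Both lay higher in each EPZ library, with log2 fold changes of 0.88 ± 0.18 and 0.86 ± 0.18. KRTAP2-3, a hair keratin-associated gene, went with low values of 1.63 and 1.16 FPKM under DMSO and 4.08 and 3.51 FPKM under EPZ. CFAP298-TCP10L, a read-through of neighbouring genes, stood at 6.12 and 7.39 FPKM under DMSO and 11.1 and 12.1 FPKM under EPZ, while CFAP298, which it overlaps, stood at 39.6 and 41.2 FPKM under DMSO and 34.5 and 34.5 FPKM under EPZ. The read-through was higher and the gene it shares sequence with was lower. The histones H2AC6 and H2AW and the antiviral gene BST2 are described with their groups.

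The 12 lower genes were SMIM11B, TNFRSF6B, AC002996.1, FOSL1, HAS3, KLF2, CCDC85B, CISD3, C4orf48, CDKN2A, RGPD6 and CCDC189. Apart from SMIM11B none passed (limma adjusted p = 0.756 for each). TNFRSF6B (ENSG00000243509, chromosome 20, 63696652 to 63698684) encodes a secreted decoy receptor for FAS ligand and stood at 90.5 and 62.3 FPKM under DMSO and 35.5 and 29.7 FPKM under EPZ. DMSO replicate 1 was the highest library by a wide margin, yet DMSO replicate 2 was still clearly above both EPZ libraries. The log2 fold change of -1.20 ± 0.19 (SE) became -0.93 without DMSO replicate 1 and -1.46 without DMSO replicate 2. It passed in every fit that left out 1 library. The overlapping read-through RTEL1-TNFRSF6B stood at 7.84 and 6.07 FPKM under DMSO and 5.60 and 4.61 FPKM under EPZ. RTEL1 stood at 23.3 and 18.9 FPKM under DMSO and 20.4 and 17.2 FPKM under EPZ. Both lay in the same direction by a smaller amount (-0.41 and -0.16).

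FOSL1 (chromosome 11, 65892049 to 65900419), which encodes the AP-1 subunit FRA1, stood at 95.8 and 79.7 FPKM under DMSO and 55.9 and 53.4 FPKM under EPZ, and its log2 fold change of -0.67 ± 0.13 (SE) became -0.54 without DMSO replicate 1. CCDC85B lies 413 bases from FOSL1 and stood at 62.5 and 69.3 FPKM under DMSO and 45.2 and 41.1 FPKM under EPZ. These neighbours were lower by similar amounts (-0.67 and -0.61), and CCDC85B shrank to -0.39 with the GC trend removed. HAS3, a hyaluronan synthase, had tight groups at 41.2 and 40.4 FPKM under DMSO and 26.8 and 26.96 FPKM under EPZ. KLF2, a Krüppel-like transcription factor, stood at 46.1 and 46.5 FPKM under DMSO and 30.3 and 31.3 FPKM under EPZ. Leaving out DMSO replicate 1 left these at -0.58 and -0.59, against -0.59 and -0.58 with all libraries. With the GC trend removed KLF2, whose transcripts are 66.8% GC, came to -0.37. CDKN2A, which encodes the p16 and ARF tumour suppressors, stood at 31.2 and 25.6 FPKM under DMSO and 17.9 and 17.7 FPKM under EPZ (-0.65 ± 0.14, SE). CISD3, a mitochondrial iron-sulfur protein gene, stood at 22.3 and 20.7 FPKM under DMSO and 14.1 and 13.9 FPKM under EPZ. C4orf48 stood at 27.8 and 26.6 FPKM under DMSO and 17.6 and 18.4 FPKM under EPZ, and its log2 fold change went from -0.58 to -0.28 with the GC trend removed (74.4% GC). CCDC189 was low throughout (6.76 and 4.29 FPKM under DMSO and 2.42 and 1.12 FPKM under EPZ). AC002996.1, which overlaps ACAD10 and ALDH2, stood at 13.9 and 8.60 FPKM under DMSO and 3.45 and 4.19 FPKM under EPZ, while ALDH2, the mitochondrial aldehyde dehydrogenase, stood at 33.3 and 26.1 FPKM under DMSO and 29.3 and 26.3 FPKM under EPZ. Of the 24 genes of both directions, 9 overlap another gene tested, and the strand setting of the counting is not given in the sources used here.

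**Figure D2:**
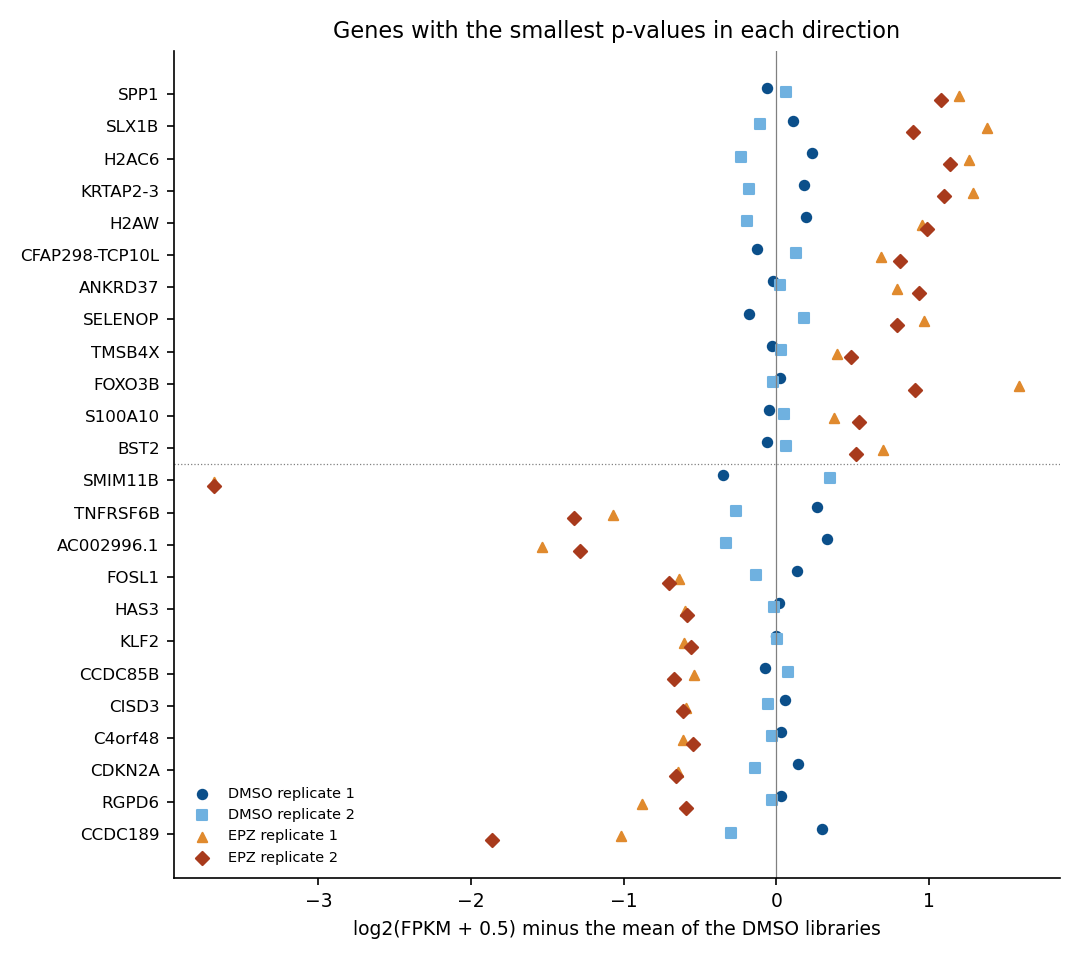
Levels of the 12 higher and 12 lower genes in each of the 4 libraries, as log2(FPKM + 0.5) minus the mean of the DMSO libraries, with the dotted line between the directions. The EPZ libraries lie on 1 side of the DMSO libraries in all 24 genes, as the choice required, and SMIM11B was listed at 0 in both EPZ libraries.

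Large fold changes depended on DMSO replicate 1 more than on its partner. Of the 552 genes with an absolute log2 fold change of at least 0.5, 232 kept their size within 1.5 times without DMSO replicate 1 and 38 changed sign, against 310 and 8 without DMSO replicate 2. With the GC trend removed, 493 of the 552 stayed within 1.5 times. The extreme cases were 8 genes with DMSO replicate 1 far from the other 3 libraries, which lay within 0.2 log2 of each other. PRR11, which acts in cell cycle progression, stood at 10.3 and 29.6 FPKM under DMSO and 27.6 and 29.3 FPKM under EPZ. Its log2 fold change of 0.68 ± 0.39 (SE) became -0.06 without that library. ST3GAL5, the synthase of ganglioside GM3, stood at 1.88 and 6.13 FPKM under DMSO and 6.17 and 5.85 FPKM under EPZ. The centromere protein gene CENPK stood at 2.92 and 6.91 FPKM under DMSO and 6.89 and 7.83 FPKM under EPZ. SPRTN, a protease that clears DNA-protein crosslinks, stood at 5.02 and 10 FPKM under DMSO and 10.1 and 10.3 FPKM under EPZ. In these 4 genes, and in ASNSD1 (9.12 and 20.9 FPKM under DMSO and 19.4 and 22.1 FPKM under EPZ) and the methyltransferase gene SETD4 (3.998 and 8.72 FPKM under DMSO and 9.42 and 9.58 FPKM under EPZ), the value in DMSO replicate 1 was lower than in the other 3 libraries. In AC034102.2 (11.4 and 3.45 FPKM under DMSO and 3.87 and 3.94 FPKM under EPZ) and AC023509.1 (12.9 and 5.94 FPKM under DMSO and 6.45 and 5.996 FPKM under EPZ) it was higher. Without DMSO replicate 1 the 8 log2 fold changes lay between -0.06 and 0.16. Genes were taken only if the other 3 libraries lay within 0.2 log2. None of these values could therefore exceed 0.2 in size, and their closeness to 0 was fixed by the choice.

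**Figure D3:**
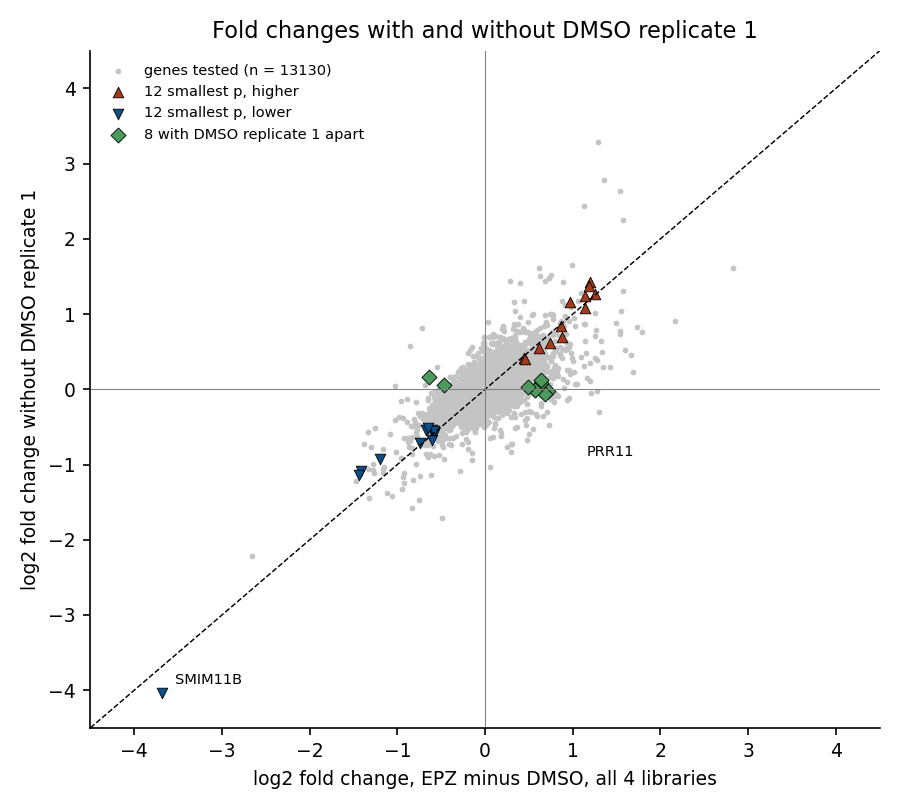
Each point is 1 gene tested, placed by its log2 fold change with all 4 libraries (x axis) and without DMSO replicate 1 (y axis), with the dashed line where the values are equal. The 24 genes with the smallest p-values (triangles) lie near the dashed line. The 8 genes with DMSO replicate 1 apart (diamonds) lie near 0 on the y axis, as their choice required. PRR11 moves from 0.68 to -0.06.

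Gene lists were then described by counts and medians, beside the median of all genes tested (0.00, and 0.00 with the GC trend removed). The lists were chosen with earlier results of these data known, and 0 of their members passed the test, so the following sentences give values and not calls.

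Replication-dependent histones were the list farthest from 0. These genes supply histones in S phase, and most of their transcripts lack poly(A) tails, so mRNA libraries capture them only in part. Of 67 genes, 21 were listed and 14 were tested, of which 4 reached the limit of 1 FPKM only in the EPZ libraries and therefore had to lie higher there. Counts and medians over the 14 are given as a description only. Over the 21 listed genes, 17 had a higher mean in EPZ and 4 a lower one. Their summed level was 49.99 and 43.7 FPKM under DMSO and 67.3 and 66.2 FPKM under EPZ. Both EPZ libraries lay above both DMSO libraries. The median log2 fold change over the 14 was 0.55, 0.55 with DMSO replicate 1 left out, 0.51 with DMSO replicate 2 left out and 0.54 with the GC trend removed. Over the 8 members at 1 FPKM or more in every library it was 0.48, 0.57 without DMSO replicate 1 and 0.55 with the GC trend removed.

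H2AC6 (chromosome 6, 26124145 to 26139116), a histone H2A gene that can also give polyadenylated transcripts, stood at 2.95 and 1.99 FPKM under DMSO and 6.52 and 5.94 FPKM under EPZ (log2 fold change 1.20 ± 0.21, SE). H2BC4, a histone H2B gene that lies 234 bases from H2AC6, stood at 0.139 and 0.398 FPKM under DMSO and 1.56 and 1.08 FPKM under EPZ. H2AW, another H2A gene on chromosome 1, stood at 3.59 and 2.64 FPKM under DMSO and 6.43 and 6.58 FPKM under EPZ. The H2B gene H2BC5 stood at 3.02 and 2.71 FPKM under DMSO and 4.30 and 4.79 FPKM under EPZ. H2BC4 passed the filter through the EPZ libraries alone, so its direction was fixed by the filter. H2AC6, H2AW and H2BC5 were higher in both EPZ libraries, and further from DMSO without DMSO replicate 1 (1.43, 1.16 and 0.65). The histone H4 gene H4C14 stood at 1.70 and 2.78 FPKM under DMSO and 5.10 and 3.72 FPKM under EPZ. Its log2 fold change of 0.86 became 0.57 without DMSO replicate 1 and -0.20 when only protein-coding transcripts were summed. Levels of this list are low, and histone genes of 1 class share much of their coding sequence, so values of single members are uncertain.

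Interferon-stimulated genes, the antiviral programme of the cell, were the next list. Of 51 genes, 48 were listed and 39 tested. Among the 39, 33 lay above 0, and groups did not overlap upward in 18 (background 18.6%) and downward in 2 (background 18.8%). Before adjustment 11 had p under 0.05 (background 5.83%). The median log2 fold change was 0.20. It was 0.10 without DMSO replicate 1 and 0.34 without DMSO replicate 2, so it moved by over 1.5 times with either DMSO library, while 31 of 39 still lay above 0 without DMSO replicate 1. With the GC trend removed the median was 0.18. The median deviation of the members was -0.22 in DMSO replicate 1, -0.04 in DMSO replicate 2, 0.05 in EPZ replicate 1 and 0.15 in EPZ replicate 2.

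Of the 5 members with the smallest p-values, BST2 and IFITM1 had DMSO libraries close to each other. BST2 (tetherin, which holds budding viruses on the cell surface) stood at 10.9 and 11.9 FPKM under DMSO and 18.8 and 16.5 FPKM under EPZ (log2 fold change 0.61 ± 0.14, SE, and 0.55 without DMSO replicate 1). IFITM1, which blocks virus entry, stood at 12.9 and 13.3 FPKM under DMSO and 16.9 and 18.1 FPKM under EPZ (0.40 ± 0.13, and 0.38). All 5 had their lowest value in DMSO replicate 1, by a wider gap in the others than in BST2 and IFITM1. IFI44 stood at 2.89 and 6.76 FPKM under DMSO and 10.1 and 12.6 FPKM under EPZ, and its log2 fold change of 1.25 ± 0.32 became 0.70 without that library. The RNA sensor DDX58 (RIG-I) stood at 8.65 and 15.2 FPKM under DMSO and 17.6 and 20.5 FPKM under EPZ and went from 0.70 to 0.31. IFI6, a mitochondrial survival protein and the most abundant of the 5, stood at 241 and 275 FPKM under DMSO and 317 and 314 FPKM under EPZ and went from 0.29 to 0.20.

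The promoters of these genes (250 bases before to 50 bases after the start, from RefSeq, GRCh38.p14) were searched on both strands for the interferon-stimulated response element, taken as GAAA repeated after any 2 bases. It was found in 21 of 31 list members with a promoter in the table (67.7%) and in 996 of 27305 promoters searched (3.65%). The list is defined by interferon response, so this share describes the list and not the treatment. Windows around the element (in capitals, reading in the direction of the gene) are shown for 4 of the 5 named members, at chr19:17405731-17405780 (minus strand), chr1:78649751-78649788 (plus strand), chr11:313980-314029 (plus strand) and chr1:27672256-27672305 (minus strand).
BST2: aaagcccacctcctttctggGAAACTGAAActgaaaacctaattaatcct
IFI44: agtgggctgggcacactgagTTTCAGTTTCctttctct
IFITM1: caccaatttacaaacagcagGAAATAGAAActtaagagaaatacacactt
IFI6: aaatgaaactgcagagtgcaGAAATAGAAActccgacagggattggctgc
In IFI44 the element is on the other strand. The BST2 window holds a second, overlapping match, and IFI6 has others further from the start. A match in these letters is a description and not a measured site.

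Genes of DNA replication and S phase lay lower. All 50 members were tested, 40 lay below 0 and 10 above. Groups did not overlap downward in 20 members (background 18.8%) and upward in 1 (background 18.6%). The summed level of the list was 1789 and 1793 FPKM under DMSO and 1627 and 1615 FPKM under EPZ. The DMSO libraries nearly coincided and both EPZ libraries were lower. The median log2 fold change was -0.12, -0.16 with DMSO replicate 1 left out, -0.10 with DMSO replicate 2 left out and -0.12 with the GC trend removed. The number above 0 went from 10 to 5 without DMSO replicate 1, and the median did not shrink without that library, although the differences were small. In bulk RNA, a different share of cells in S phase and a different level per cell cannot be told apart.

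The smallest p-values belonged to subunits of the replicative helicase and genes of origin licensing. MCM5 (chromosome 22, 35400137 to 35425431) stood at 66.3 and 51.5 FPKM under DMSO and 39.5 and 40.9 FPKM under EPZ, and its log2 fold change of -0.54 ± 0.14 (SE) became -0.36 without DMSO replicate 1. MCM4 stood at 65.9 and 64.9 FPKM under DMSO and 51.3 and 55.7 FPKM under EPZ. MCM2 stood at 33.8 and 30.3 FPKM under DMSO and 27.4 and 22.9 FPKM under EPZ. MCM3, MCM6 and MCM7, the other subunits of the hexamer, are given because of the first 3 and were chosen after their values were seen. They stood at -0.28 ± 0.12, -0.17 ± 0.14 and -0.25 ± 0.11 on the log2 scale, and the groups of MCM6 overlapped. ORC1, the ATPase of the origin recognition complex, stood at 12.1 and 10.2 FPKM under DMSO and 8.59 and 8.55 FPKM under EPZ. DTL, which directs the destruction of the licensing factor CDT1, stood at 16.4 and 14.1 FPKM under DMSO and 12.9 and 10.04 FPKM under EPZ. Its log2 fold change of -0.40 turned to 0.07 when only protein-coding transcripts were summed.

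The E2F motif (TTTCGCGC or TTTGGCGC, both strands) was present in 13 of 42 promoters of the list that were searched (30.95%). It was present in 1.18% of the 27305 promoters searched. E2F transcription factors are known to drive S-phase genes, and the list holds many known targets, so the share with the motif again describes the list. The windows of DTL (chr1:212035720-212035747 (plus strand)) and MCM7 (chr7:100101398-100101426 (minus strand)) lie just before the start site and are shown with the motif in capitals.
DTL: atcagagagcgtgacgtcagTTTGGCGC
MCM7: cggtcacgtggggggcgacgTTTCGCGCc
A match of these letters is a description, and a window without one says nothing of the factor.

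**Figure D4:**
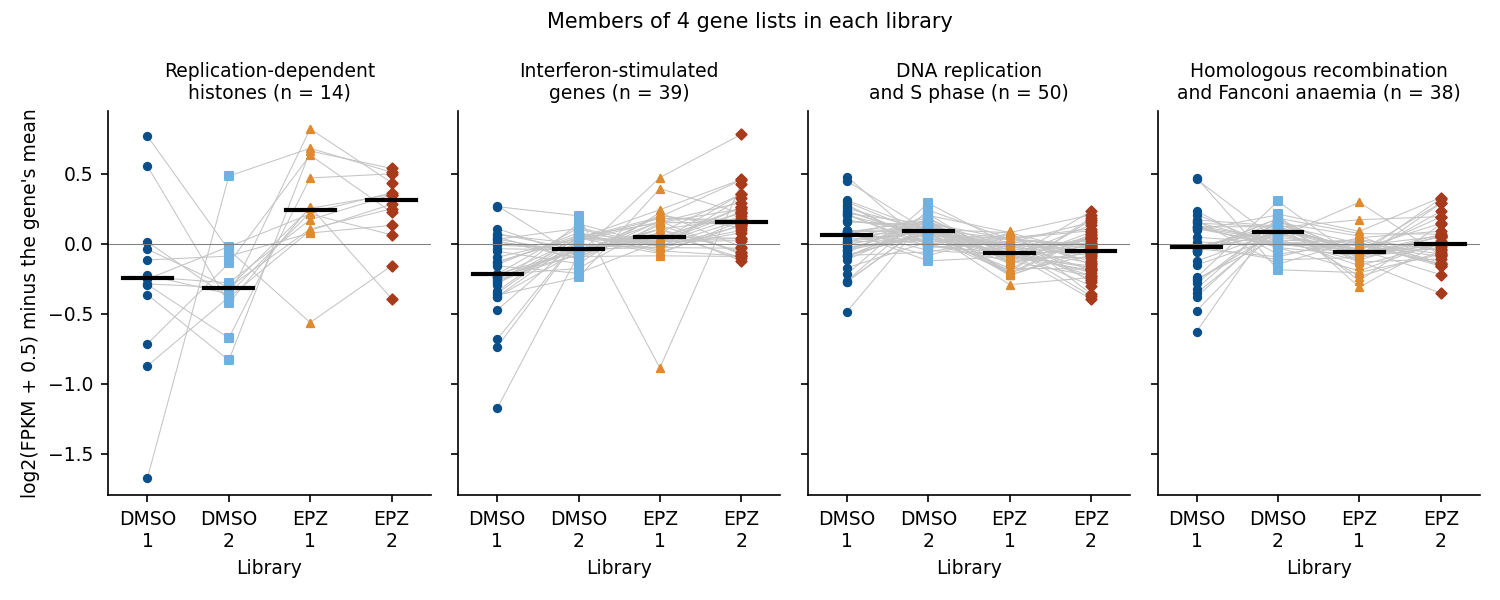
Members tested of 4 lists in each library, as log2(FPKM + 0.5) minus the gene's mean, with black bars for the median and grey lines joining the values of 1 gene. The histones step up between the DMSO and EPZ libraries (medians -0.25, -0.31, 0.24 and 0.31). Of these 14 histones, 4 reached 1 FPKM only in the EPZ libraries and had to lie higher there. The interferon-stimulated genes have their lowest median in DMSO replicate 1, and the replication genes step down by a small amount.

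HOX, MEIS and PBX genes encode homeodomain factors that respond to DOT1L inhibition in KMT2A-rearranged leukaemia. Of 39 genes in the list, 32 were listed and 29 tested in these colorectal cells. Of the 29, 13 lay above 0 and 16 below, with a median of -0.04, -0.05 without DMSO replicate 1 and -0.11 without DMSO replicate 2. Groups did not overlap upward in 6 and downward in 9 members (background 18.6% and 18.8%). HOXD8 stood at 4.24 and 4.26 FPKM under DMSO and 6.26 and 7.31 FPKM under EPZ (log2 fold change 0.61 ± 0.16, SE). MEIS2, a HOX cofactor, stood at 7.05 and 6.09 FPKM under DMSO and 4.28 and 4.13 FPKM under EPZ (-0.59 ± 0.16). HOXB4 stood at 4.97 and 4.55 FPKM under DMSO and 3.20 and 3.01 FPKM under EPZ. HOXA3 stood at 6.97 and 7.27 FPKM under DMSO and 5.46 and 4.52 FPKM under EPZ. In these 4 genes the values without DMSO replicate 1 were 0.61, -0.49, -0.49 and -0.51. HOXD8 was higher and the other 3 lower. Among the H3 lysine methyltransferases and demethylases (35 tested, median 0.04, and 0.02 without DMSO replicate 1 and 0.01 with the GC trend removed) the smallest p-value was that of the H3 lysine 9 demethylase KDM3A, at 16.2 and 18.6 FPKM under DMSO and 23.02 and 21.8 FPKM under EPZ (0.36 ± 0.13, and 0.26 without DMSO replicate 1).

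The title of the series concerns repair of double-strand breaks, so 3 lists of repair genes were described. In the list of homologous recombination, which repairs breaks from a template, and of the Fanconi anaemia pathway, which repairs crosslinks, 38 of 38 members were tested. Of these 26 lay below 0, and groups did not overlap downward in 10 (background 18.8%) and upward in 2 (background 18.6%). The median was -0.07, -0.07 with DMSO replicate 1 left out and -0.01 with DMSO replicate 2 left out. TOP3A, a topoisomerase that dissolves recombination intermediates, stood at 18.9 and 13.8 FPKM under DMSO and 12.4 and 10.5 FPKM under EPZ. DMSO replicate 1 was high, and the log2 fold change of -0.48 ± 0.18 (SE) became -0.26 without it. FANCG, a subunit of the Fanconi core complex, stood at 29.3 and 28.4 FPKM under DMSO and 22.01 and 24.9 FPKM under EPZ (-0.30 ± 0.13, and -0.27).

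In the list of non-homologous end joining, which religates broken ends, 14 of 15 members were tested, 7 lay above 0 and 7 below, and the median was 0.00. PRKDC, the catalytic subunit of the DNA-dependent kinase, stood at 74.1 and 71.1 FPKM under DMSO and 59.5 and 62.2 FPKM under EPZ (-0.25 ± 0.11, and -0.22 without DMSO replicate 1). DNA ligase gene LIG4 stood at 1.33 and 4.73 FPKM under DMSO and 4.66 and 5.84 FPKM under EPZ, where DMSO replicate 1 alone was low. Its log2 fold change of 0.89 ± 0.43 became 0.13 without that library. In the list of break signalling and checkpoint genes (30 of 31 tested, median 0.00, -0.06 without DMSO replicate 1 and 0.13 without DMSO replicate 2) the kinase CHEK1 stood at 16.4 and 16.7 FPKM under DMSO and 13.3 and 13.3 FPKM under EPZ. ABRAXAS1, a scaffold of the BRCA1-A complex, stood at 7.63 and 10.1 FPKM under DMSO and 11.9 and 11.8 FPKM under EPZ. CHEK1 was lower (-0.31 ± 0.13) and ABRAXAS1 higher (0.41 ± 0.16), and without DMSO replicate 1 the values were -0.32 and 0.22. ABRAXAS1 was also at 0.24 with the GC trend removed.

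AP-1 and immediate early genes respond within minutes to growth signals. Of 28 tested, 19 lay below 0, groups did not overlap downward in 15 (background 18.8%) and upward in 5 (background 18.6%), and the median was -0.06 (-0.08 without DMSO replicate 1, -0.03 with the GC trend removed). After FOSL1 and KLF2 came the AP-1 subunit FOSB, at 50.8 and 37.2 FPKM under DMSO and 26.998 and 28.6 FPKM under EPZ. The orphan nuclear receptor NR4A1 stood at 85.05 and 70.1 FPKM under DMSO and 57.3 and 56.2 FPKM under EPZ. In both, DMSO replicate 1 was the highest library, and the log2 fold changes of -0.64 and -0.44 became -0.41 and -0.30 without it. CCN2, a matricellular growth factor, went the other way at 6.12 and 9.06 FPKM under DMSO and 13.05 and 13.9 FPKM under EPZ (0.81 ± 0.19, and 0.55). The AP-1 motif TGANTCA was found in 1 of 21 promoters of the list and in 7.76% of all promoters searched. Among ERK feedback genes and EGF receptor ligands (24 tested, median -0.03) the ERK inhibitor SPRY1 stood at 2.69 and 1.81 FPKM under DMSO and 3.94 and 4.31 FPKM under EPZ. The ligand BTC stood at 2.22 and 2.80 FPKM under DMSO and 3.30 and 5.14 FPKM under EPZ. The ligand EREG was lower, at 60.5 and 79.7 FPKM under DMSO and 46.2 and 52.4 FPKM under EPZ, and its log2 fold change of -0.49 ± 0.15 (SE) became -0.69 without DMSO replicate 1.

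The G2 and mitosis list (35 tested) had a median of 0.06, which was 0.00 without DMSO replicate 1 and -0.03 with the GC trend removed. Its phosphatase CDC25B stood at 140.1 and 124 FPKM under DMSO and 111 and 101 FPKM under EPZ. Its kinetochore motor CENPE stood at 6.87 and 9.23 FPKM under DMSO and 9.69 and 11.6 FPKM under EPZ. The log2 fold change of CENPE went from 0.39 to 0.19 without DMSO replicate 1 and to 0.16 with the GC trend removed. The sign of the median differed between these settings.

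Mitochondrial DNA encodes subunits of the respiratory chain. Its transcripts held 17.3% and 17.6% of the summed FPKM under DMSO and 18.4% and 19.3% under EPZ. Of 13 such genes 12 lay above 0, groups did not overlap upward in 10 (background 18.6%), and the median was 0.10 (0.11 without DMSO replicate 1, 0.05 with the GC trend removed). MT-ATP8, an ATP synthase subunit, stood at 3280.3 and 4416 FPKM under DMSO and 5067 and 6473 FPKM under EPZ. MT-ND3, a complex I subunit, stood at 2652 and 2769 FPKM under DMSO and 3056 and 3694 FPKM under EPZ. For both, EPZ replicate 2 was the highest library. The log2 fold change of MT-ATP8 went from 0.59 to 0.38 without DMSO replicate 1, and that of MT-ND3 from 0.31 to 0.16 with the GC trend removed. MT-ATP8 spans only bases 8366 to 8572, and MT-ATP6, another ATP synthase subunit gene, had a log2 fold change of 0.09. A list kept as a view of RNA quality (8 tested) held MALAT1, TUG1, NORAD, GAS5 and SNHG5 among others. It had 7 above 0 and a median of 0.10 (0.03 without DMSO replicate 1, 0.21 without DMSO replicate 2, 0.04 with the GC trend removed). In it TUG1 stood at 34.1 and 37.9 FPKM under DMSO and 42.6 and 45.6 FPKM under EPZ. The part of RNA capture in the mitochondrial and histone values was not tested.

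The remaining lists had medians near 0. The list of cholesterol and fatty acid synthesis (32 tested, median 0.05) held the desaturase SCD at 289.9 and 323 FPKM under DMSO and 407 and 410.2 FPKM under EPZ, tight within groups, with a log2 fold change of 0.42 ± 0.10 (SE) and 0.34 without DMSO replicate 1. The sterol carrier STARD4 stood at 22.1 and 21.97 FPKM under DMSO and 27.6 and 28.2 FPKM under EPZ. In the list of epithelial-mesenchymal transition (22 tested, median 0.07), the matrix gene FN1 stood at 10.1 and 10.7 FPKM under DMSO and 14.4 and 14.3 FPKM under EPZ. The intermediate filament VIM stood at 4.08 and 5.06 FPKM under DMSO and 6.60 and 6.31 FPKM under EPZ. Both were higher in EPZ at low levels (0.44 ± 0.13 and 0.46 ± 0.17). For death receptors and the BCL2 family (29 tested) the median was -0.04, with the survival gene BCL2L1 at 86.2 and 74.5 FPKM under DMSO and 67.3 and 60.5 FPKM under EPZ. NF-kB subunits and targets (16 tested) had a median of -0.04, with the chemokine CXCL8 at 2.26 and 1.64 FPKM under DMSO and 2.54 and 4.16 FPKM under EPZ. The inhibitor NFKBIB stood at 17.95 and 15.5 FPKM under DMSO and 14.1 and 12.03 FPKM under EPZ. The unfolded protein response list (32 tested, median -0.03) had its smallest p-value for the asparagine synthetase ASNS, at 103 and 107 FPKM under DMSO and 135 and 129 FPKM under EPZ. Heat shock and NRF2 targets (30 tested, median -0.06) had theirs for the ferritin light chain FTL, at 1663 and 1653 FPKM under DMSO and 1931 and 1852 FPKM under EPZ. Medians were 0.00 for glycolysis and hypoxia (30 tested), 0.01 for MHC class I and antigen processing (17), -0.10 for osteopontin, hyaluronan and their receptors (12) and -0.01 for colon and intestinal differentiation (9), in which KLF5, a crypt transcription factor, stood at 73 and 69.2 FPKM under DMSO and 59.4 and 57.6 FPKM under EPZ. These small medians moved with single libraries.

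Without DMSO replicate 1 the medians of these lists were -0.05 for osteopontin and hyaluronan, -0.09 for colon differentiation, -0.08 for NF-kB, 0.07 for glycolysis and hypoxia, 0.01 for MHC class I, -0.02 for death receptors, -0.01 for the unfolded protein response, -0.04 for heat shock, 0.04 for epithelial-mesenchymal transition, 0.05 for cholesterol and -0.06 for the ERK list. Without DMSO replicate 2 they were -0.11 for osteopontin and hyaluronan, 0.09 for colon differentiation, -0.01 for NF-kB, -0.07 for glycolysis and hypoxia, 0.00 for MHC class I, -0.08 for death receptors, -0.07 for the unfolded protein response, -0.02 for heat shock, 0.01 for epithelial-mesenchymal transition, 0.05 for cholesterol and 0.01 for the ERK list. After removal of the GC trend they were -0.05 for osteopontin and hyaluronan, -0.04 for colon differentiation, 0.00 for NF-kB, 0.05 for glycolysis and hypoxia, 0.07 for MHC class I, -0.01 for death receptors, -0.02 for the unfolded protein response, -0.03 for heat shock, 0.07 for epithelial-mesenchymal transition, 0.06 for cholesterol and -0.01 for the ERK list. The medians for colon differentiation and for glycolysis and hypoxia thus had opposite signs with one and the other DMSO library left out. Without EPZ replicate 1 the medians were -0.01 for osteopontin and hyaluronan and 0.00 for cholesterol. Among their named members, the log2 fold change of STARD4 went from 0.33 to 0.17, that of NFKBIB from -0.35 to -0.19 and that of CXCL8 from 0.63 to 0.40 with the GC trend removed.

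**Figure D5:**
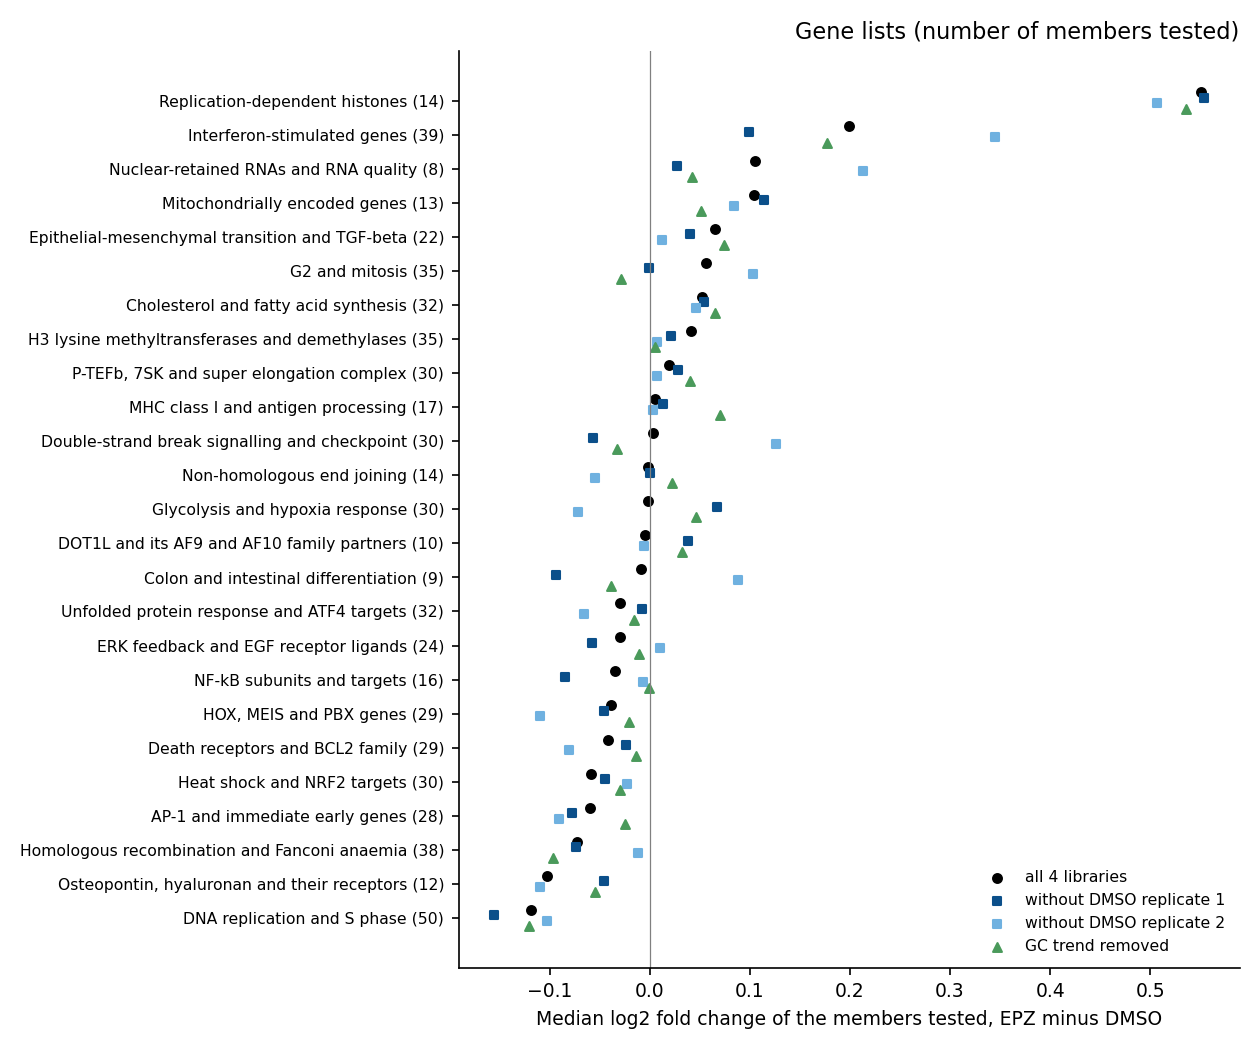
Median log2 fold change of EPZ over DMSO for the members tested of the lists shown, each with 8 or more members (number in brackets), with all libraries, without DMSO replicate 1, without DMSO replicate 2 and with the GC trend removed. The histones (0.55) lie above 0 and the replication genes (-0.12) below 0 in each setting shown. The interferon-stimulated genes range from 0.10 to 0.34. Of the 14 histones, 4 passed the filter through the EPZ libraries alone and had to lie higher there. Over the 8 histones at 1 FPKM or more in every library the median was 0.48.

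Sums over transcripts hide shifts between transcripts of 1 gene. Among 41769 transcripts of 6986 genes at 10 FPKM or more in every library, 194 had a mean share of the gene that differed by at least 20 percentage points between groups that did not overlap. The 5 genes with the largest such shifts were RAB12, GCH1, GAR1, ALG5 and DHX29. GCH1, the first enzyme of tetrahydrobiopterin synthesis, was level as a gene (10.4 and 10.5 FPKM under DMSO and 10.4 and 11.4997 FPKM under EPZ). Its transcript GCH1-204 held 23.3% and 38.4% of the gene's FPKM under DMSO and 82.1% and 89.4% under EPZ. Its transcript GCH1-201 held 45.5% and 53.8% of the gene's FPKM under DMSO and 1.57% and 0% under EPZ, and in the authors' deposited table it had an adjusted p of 0.000219. In the authors' deposited table the adjusted p was 0.0987 for GCH1-204, 0.780 for GAR1-201 and 0.9999 for RAB12-201, ALG5-201 and DHX29-201. In RAB12, a small GTPase gene, RAB12-201 held 0% and 36.2% of the gene's FPKM under DMSO and 93.5% and 64.7% under EPZ. In GAR1, which encodes a protein of H/ACA ribonucleoproteins, GAR1-201 held 61.5% and 53.6% of the gene's FPKM under DMSO and 0% and 11.7% under EPZ. ALG5-201, of a glycosyltransferase gene, held 88.2% and 44.6% of the gene's FPKM under DMSO and 34.6% and 4.70% under EPZ. The transcript ALG5-210 held 0% and 0% of the gene's FPKM under DMSO and 13.04% and 4.11% under EPZ. ALG5-210 had an adjusted p of 0.0466 (edgeR) in the authors' deposited table. For RAB12 and ALG5 the libraries of a group differed among themselves widely. Another transcript of GAR1, GAR1-202, held 0% and 25.2% of the gene's FPKM under DMSO and 60.5% and 67.0% under EPZ. For the RNA helicase DHX29, DMSO replicate 1 was the odd library, with DHX29-201 at 7.53% and 88.1% of the gene's FPKM under DMSO and 95.3% and 93.1% under EPZ. Shares of this kind are estimates for transcripts that share most of their sequence.

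The title of the series names methylation of CDK9 by DOT1L, so the EPZ effect was set beside the difference between K56A and WT cells. No library is shared by these comparisons. Across 8 libraries and 11117 genes, 0 genes passed for the difference between the effects in either direction (limma, 0%), and 1270 had an unadjusted p under 0.05 (11.4%). Without DMSO replicate 2 the count was 1475, and 0 without any other library. As a description across genes, the EPZ effect and the K56A minus WT difference had a Spearman rho of -0.268 (n = 11117). This went to -0.0721 without DMSO replicate 1 and to -0.00655 with the GC trend removed from the inhibitor libraries. The K56A minus WT difference itself had a rho of 0.482 with GC content.

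Of the 24 named genes 21 were measured in both experiments, and 8 had the same sign in both. In 21 of 21 the difference between K56A and WT was smaller, which the choice of the genes on the EPZ effect favours. FOSL1 had a log2 difference of 0.16 ± 0.10 (SE) between K56A and WT, and the effects differed by -0.83 ± 0.14 (adjusted p = 0.259, limma). HAS3 had 0.14 ± 0.08 and a difference of effects of -0.73 ± 0.12 (limma adjusted p = 0.259). For SPP1 the values were 0.14 ± 0.13 and 0.99 ± 0.19 (limma adjusted p = 0.392), and for TMSB4X -0.20 ± 0.07 and 0.64 ± 0.09 (limma adjusted p = 0.259). DOT1L stood at 578 and 568 FPKM in the WT libraries and at 733 and 703 FPKM in the K56A libraries, far above its 10.4 to 12.6 FPKM in the inhibitor experiment, so its values in these experiments are not on a like level. DOT1L was -0.25 with EPZ and 0.32 ± 0.06 between K56A and WT, a difference of -0.57 ± 0.09 (limma adjusted p = 0.259). CDK9, put back in the WT and K56A cells, stood at 3060.2 and 2976 FPKM in WT and 2611 and 2500.3 FPKM in K56A, against 37.6 to 43.9 FPKM in the inhibitor experiment. How much of this comes from the CDK9 put back was not tested. Its log2 difference was -0.02 with EPZ and -0.24 ± 0.08 between K56A and WT. None of these differences passed.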

How the data were processed

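RNA of HCT116 cells was sequenced with a TruSeq mRNA kit, per the labels. The authors deposited FPKM values per transcript. The submitters' processing notes list RSEM 1.3.3, STAR 2.7.1a, DESeq2 1.32.0, Trim Galore 0.6.6 and the build GRCh38, without their roles. The annotation release is not given in the sources used here. Per the file headers, the authors' deposited table also holds a log2 fold change, a p-value and an adjusted p per transcript from edgeR, of which the adjusted p of named transcripts is printed. Only transcripts above 0 in 2 or more libraries of a table are listed.

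FPKM was summed here over the transcripts of each gene. Genes with at least 1 FPKM in 2 or more of the 4 libraries (13130 of 15586) entered limma 3.58.1 (R 4.3.3) as log2(FPKM + 0.5) (variance trend, Benjamini-Hochberg adjustment, threshold 0.05). The fit was also run on simulated data as a test of the code, and no result given here rests on that run. No library was pooled, dropped or imputed in the main comparison. The files hold no counts, so intervals that need a depth are not given.

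The comparison with K56A and WT used 8 libraries and 11117 genes in 1 limma model. The 2 tables of the knockdown cells share the EV libraries. Genes with more than 5% of their FPKM in transcripts listed in only 1 of those tables were left out.

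The GC trend of each library was removed with lowess (span 0.3) against transcript GC content from GENCODE release 29, found for 13040 genes. This alternative was chosen after seeing the data. Genes were named by rule: DOT1L, CDK9 and the DOT1L partners, genes past the threshold, 12 per direction with the smallest p-values, up to 5 per list, 8 with DMSO replicate 1 farthest from the rest, 5 with the largest shifts of a transcript's share, and close copies. The 8 were taken among genes with a mean of at least 5 FPKM whose other libraries lay within 0.2 log2. The members, the 31 lists and the tests were chosen with earlier results of these data known. The result of 1 list is not reported here.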

Additional observations from a re-analysis of the deposited data

How the results depend on the processing

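Counts of genes past the threshold were 0 higher and 1 lower. With 1 library left out they ran from 14 to 927 higher and from 19 to 665 lower, the largest without DMSO replicate 2. With a pseudocount of 0.1, no filter, a minimum of 5 FPKM, limma without a trend, or the GC trend removed (with or without DMSO replicate 1), 0 genes were lower. Protein-coding transcripts alone gave 1 higher and 2 lower. For the difference from the K56A minus WT effect, leaving out 1 library gave 0 to 1475 genes. A pseudocount of 1, robust limma, median-ratio scaling and removal of mitochondrial genes left the counts of the inhibitor comparison as they were. SMIM11B, the gene past the threshold, had limma adjusted p-values of up to 0.110 over its alternatives.

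The replicate numbers of the labels are shared between groups, and same-numbered libraries deviated together with r = 0.245 across 13130 genes, from 2 pairs only, so the numbers were not taken as pairing. With the replicate block, 0 genes were higher and 2 lower (TNFRSF6B and SMIM11B), and 1 gene differed in the comparison with K56A and WT. With the GC trend removed and the replicate block, 2 were higher and 4 lower.

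Among the single genes named, 47 of 1749 log2 fold changes under an alternative had the sign opposite to that with all libraries. With the GC trend removed, with and without the replicate block, these were CDK9 0.056, MLLT3 -0.075, MLLT6 0.056, MEN1 0.058 and GCH1 -0.028. With the GC trend removed and DMSO replicate 1 left out they were CDK9 0.10, MLLT10 0.034, MLLT6 0.13, NPM1 -0.054, CDC73 -0.019, AC034102.2 0.15, ST3GAL5 -0.036, PRR11 -0.059, ASNSD1 -0.034, AC023509.1 0.071, ALG5 -0.043 and DHX29 -0.033. Protein-coding transcripts alone gave MLLT6 0.012, H4C14 -0.20 and DTL 0.069. With 1 library left out in turn, the log2 fold change ran for CDK9 from -0.13 to 0.095, MLLT3 from -0.020 to 0.042, MLLT1 from -0.0051 to 0.16, MLLT10 from -0.087 to 0.046, MLLT6 from -0.20 to 0.11, NPM1 from -0.043 to 0.34. It ran for MEN1 from -0.20 to 0.011, SIRT1 from -0.011 to 0.33, HAT1 from -0.12 to 0.033, CDC73 from -0.0066 to 0.50, AC034102.2 from -1.44 to 0.16, ST3GAL5 from -0.028 to 1.45. The remaining ranges were PRR11 from -0.057 to 1.42, ASNSD1 from -0.0089 to 1.14, AC023509.1 from -0.9998 to 0.062, GCH1 from -0.014 to 0.13, ALG5 from -0.034 to 0.58 and DHX29 from -0.0099 to 0.34. The cause of these changes was not tested. With 2 libraries a group and no counts, small differences were not detectable, and a fold change near 1 FPKM is imprecise.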
